A study of Mus musculus with 62 samples.

Results

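The genes described here lie at the proximal end of mouse chromosome 17, from position 3064318 to the distal end of Pde10a at 8986648 on the mm10 build. They are present in an extra copy in Ts65Dn mice, a trisomic model of Down syndrome, although they have no orthologs on human chromosome 21. Genes were taken if they stood in both count tables, lay on chromosome 17 and ended at or before the end of Pde10a. Arid1b and Synj2 were left out by this rule. It gave 55 of the 27179 genes in the tables, of which 40 are protein-coding, 9 are lncRNAs, 5 are transcribed pseudogenes and 1 is a miRNA. A member was described at a stage if at least 7 libraries of that stage held at least 10 counts, which left 41 members in the embryonic forebrain and 42 in the adult hippocampus, with 39 at both.

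RNA-seq of polyA RNA was read from the forebrain of embryos at E17.5 (8 euploid and 7 Ts65Dn) and from the hippocampus of mice at 6 weeks of age. The adult groups were euploid (8 males and 8 females), Ts65Dn (7 males and 8 females) and Ts65Dn;Brwd1+/- (8 males and 8 females). All animals were on the mixed DBA/2J x B6EiC3Sn/J background. The Ts65Dn;Brwd1+/- animals carried a heterozygous loss of Brwd1, a chromatin reader gene of the chromosome 16 segment, so that by design Brwd1 alone was restored to its euploid copy number and the genes described here were not. Per the study's methods the embryos were of mixed sex, and the Y-linked Ddx3y stood above 0 on the log2 CPM scale in 2 of 8 euploid and 3 of 7 Ts65Dn embryos, so that the sexes were not balanced between the groups. The part of embryo sex in the results was not tested. No embryo or mouse is stated to be pooled. p-values set the difference between groups against the spread between libraries within groups, estimated from all groups fitted together.

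The Ts65Dn mouse carries a small, freely segregating marker chromosome that joins the distal part of chromosome 16 to the centromeric end of chromosome 17. The chromosome 16 part is orthologous to human chromosome 21 and the chromosome 17 part is not, so its genes are an added dosage in this model. A gene whose transcript follows its copy number would be expected at 3 copies over 2 copies, a log2 fold change of 0.585. The genes on the chromosome 17 part include mitochondrial factors (Mpc1, Tfb1m, Serac1, Tmem242), regulators of transcription (Scaf8, Gtf2h5), membrane and cytoskeletal proteins (Ezr, Snx9, Zdhhc14), signalling proteins (Rps6ka2, Tiam2, Pde10a) and several tandem duplicates.

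The duplicates limit what can be said of single members, and their coding sequences are shown for that reason. Dynlt1a, Dynlt1b, Dynlt1c and Dynlt1f encode the Tctex-type light chain of dynein, the minus-end motor of microtubules. The first 120 coding bases on GRCm38 (mm10), 5′ to 3′, are given below for these genes, with the only base that varies among the 4 coding sequences (339 bases each) in capitals.
Dynlt1a, Dynlt1c and Dynlt1f: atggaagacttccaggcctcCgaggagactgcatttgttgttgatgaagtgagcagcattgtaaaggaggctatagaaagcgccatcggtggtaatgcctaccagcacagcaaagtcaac
Dynlt1b: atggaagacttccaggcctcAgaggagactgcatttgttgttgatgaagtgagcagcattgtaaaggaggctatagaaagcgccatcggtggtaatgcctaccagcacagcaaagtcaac

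Rnaset2a and Rnaset2b, which encode the lysosomal ribonuclease T2, have coding sequences of 777 bases with 0 differences. The first 120 bases shared by both are as follows.
Rnaset2a and Rnaset2b: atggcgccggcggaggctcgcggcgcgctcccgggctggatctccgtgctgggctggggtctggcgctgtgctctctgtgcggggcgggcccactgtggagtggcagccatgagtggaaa
A read from the Rnaset2 stretch cannot be placed in 1 copy. In the Dynlt1 stretch a read can be placed only where it covers the variable base and holds A, which is found in Dynlt1b alone. Of the 50-base stretches of the annotated transcripts of the Dynlt1 genes, 70.5% (Dynlt1a) to 88.9% (Dynlt1c) occurred in another gene. The share was 78.9% for Rnaset2a and 57.2% for Rnaset2b. Other members with shared sequence were Rsph3a (58.1%), Rsph3b (69.2%), Tagap (57.5%), Tagap1 (76.2%), Tmem181a (34.4%), Tmem181b-ps (50.8%), Tmem181c-ps (72.3%), Gm2808 (93.1%), Gm1604a (100%) and Ldhal6b (100%). The share was also above 20% for Ttll2 (74.6%), Tcp10a (63.1%), Unc93a2 (56.5%), 4930470H14Rik (47.4%), Sft2d1 (28.7%), Mpc1 (26.3%), Tulp4 (23.3%) and Sytl3 (21.1%). How the counts of these genes were divided between copies was not tested.

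Library totals ranged from 14.9 to 62.6 M counts in the embryos and from 33.6 to 137.1 M counts in adults. The copy number of each library was read from the chromosome 16 segment, apart from the members. By that measure 4 libraries labelled trisomic stood at the euploid level (median log2 ratio to the euploid mean of at most 0.2), namely male Ts65Dn replicate 1, male Ts65Dn;Brwd1+/- replicates 2 and 8, and female Ts65Dn;Brwd1+/- replicate 3. Their members also stood near the euploid level, with medians of 0.05, 0.01, 0.07 and 0.01, while the members of every other trisomic library stood at 0.49 to 0.64. In addition, Xist and the Y-linked Ddx3y went against the sex label in male Ts65Dn replicate 7 and female euploid replicate 7. Results in adults are therefore given with all libraries unless stated. Counts and medians of the members are also given without the 4 libraries at the euploid level. So are some male values of single members and of sums over copies. Brwd1 itself was at a median of 106 CPM (counts per M reads) in euploid males, 149.7 CPM with the trisomy and 138.2 CPM where Brwd1 was also heterozygous, and at 125.5, 163 and 147.5 CPM in females in the same order, with overlap between the trisomic genotypes. These medians include the libraries at the euploid level, at 121.1 CPM in Ts65Dn males, 89.8 and 110.1 CPM in Ts65Dn;Brwd1+/- males and 96.4 CPM in Ts65Dn;Brwd1+/- females. The other Ts65Dn;Brwd1+/- libraries were at 132 to 152.1 CPM in males and 111.4 to 156.3 CPM in females. The highest euploid libraries were at 126.6 CPM in males and 139.5 CPM in females. Markers of choroid plexus varied most between libraries, with summed levels of 32.7 to 6349 CPM in adults and 50.8 to 1551 CPM in embryos. The markers of hippocampal neurons summed to 5177 to 8834 CPM in adults and those of embryonic forebrain to 309 to 2396 CPM in embryos, with no list having a marker at 0 in all libraries. Their part in the results was not tested, except that a choroid plexus covariate changed no count of calls by over 1.5 times. In bulk tissue fewer cells of a type and less RNA per cell cannot be told apart.

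In the E17.5 forebrain, 22 of 39 members tested were higher in Ts65Dn than in euploid embryos and 0 were lower, at an adjusted p under 0.1 in edgeR's quasi-likelihood test across all genes. Of all 16395 genes tested, 1.1% were called higher. The members' log2 fold changes had a median of 0.56, beside a median of -0.01 over all genes tested, and 37 of 39 were positive. For 35 of 39, the 95% interval of the log2 fold change contained 0.585, and for 4 it lay below it. The interval contained 0 for 6 of 39. In the chromosome 16 segment the median was 0.56 and 60 of 92 genes were called. Every Ts65Dn library stood above every euploid library for 12 members, beside 0.464% of all genes tested. These were A230045G11Rik, Scaf8, Tmem242, Snx9, Gtf2h5, Tulp4, Tmem181c-ps, Tagap1, Rps6ka2, Cep43, Sft2d1 and Gm16702.

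In the adult hippocampus of females, 26 of 40 members were called higher and 0 lower, against 1.94% of all 17146 genes called higher, with a median log2 fold change of 0.54. In males, 17 of 40 were called higher and 0 lower, against 0.671% of all 16851 genes, with a median of 0.49. Male Ts65Dn replicate 1 was the library at the euploid level. Without the libraries that lacked chromosome 16 dosage the males had 23 of 41 members called, beside 0.923% of all genes, and a median of 0.55. The 6 members newly called were Tulp4, Tmem181c-ps, Tagap1, Rps6ka2, Mpc1 and Prr18, and none was lost. Without male Ts65Dn replicate 5, 11 members were called in males. Without the library whose sex went against the label, 16 of 40 members were called in males and 24 of 40 in females. In the chromosome 16 segment the medians were 0.51 (54 of 91 called) in males and 0.52 (58 of 92 called) in females. Every Ts65Dn library stood above every euploid library for 3 members in males (0.148% of all genes tested), namely Pisd-ps2, Mpc1 and Sft2d1. For these 3 this included replicate 1, the library at the euploid level, so the separation cannot be read as dosage alone. In females it held for 12 members (0.414%), namely A230045G11Rik, Scaf8, Tfb1m, Zdhhc14, Gtf2h5, Tagap1, Tagap, Rsph3a, Ccr6, Mpc1, Sft2d1 and Prr18.

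**Figure D1:**
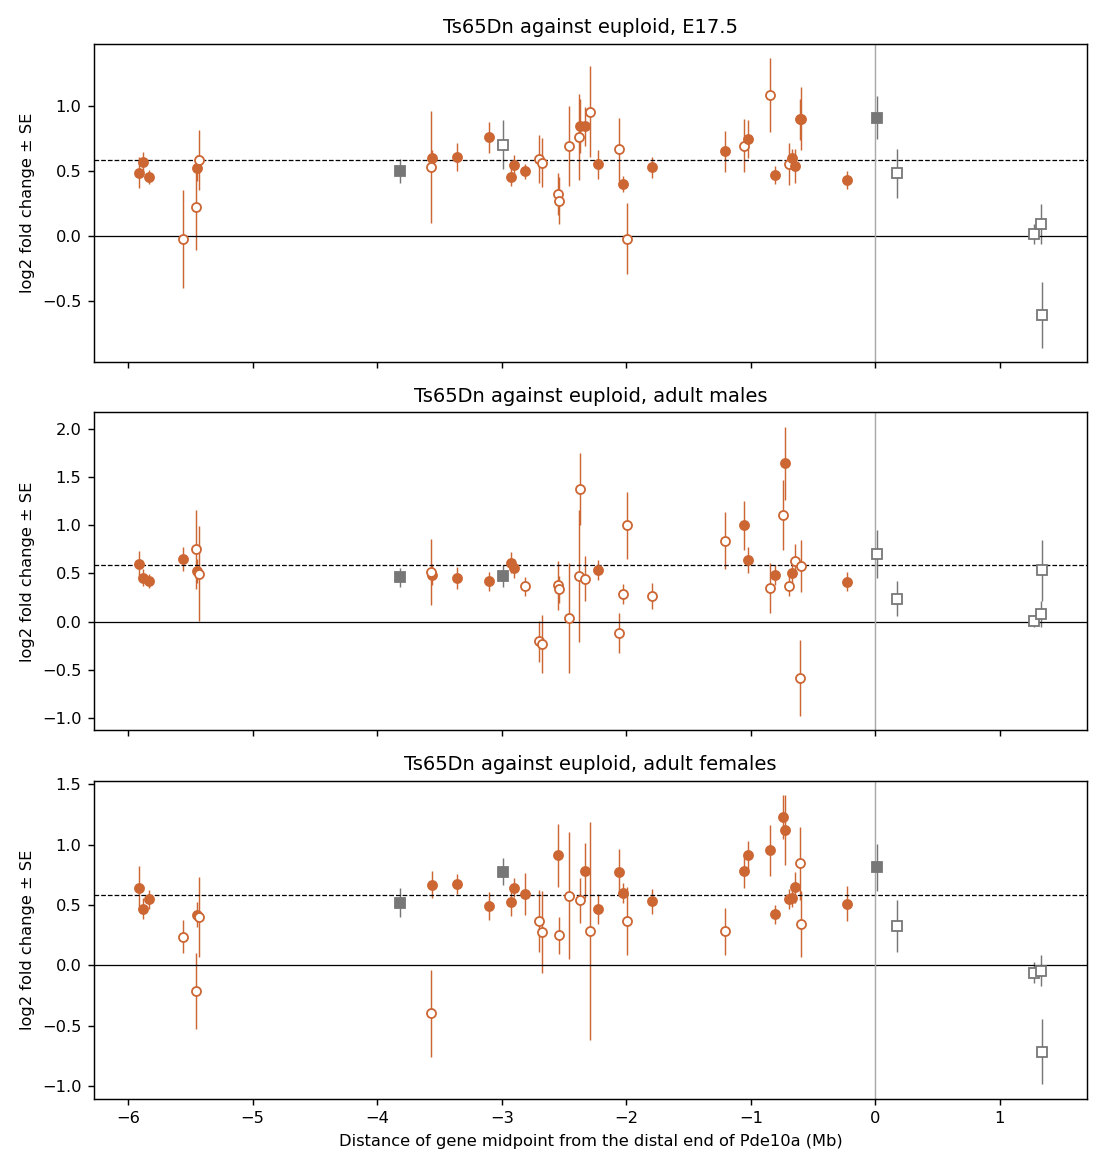
Log2 fold change of Ts65Dn against euploid (± SE) against the distance of the gene's midpoint from the distal end of Pde10a, in Mb, in 3 panels for E17.5, adult males and adult females. Circles are members and squares are Arid1b, Synj2 and genes distal of Pde10a, filled where the adjusted p was under 0.1, and the dashed line marks 3 copies over 2 copies (0.585). Most members lie near the dashed line up to the end of Pde10a. Beyond it, 1700010I14Rik also lies above 0 in every panel, filled at E17.5 and in females, and Qk lies near 0.

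**Figure D2:**
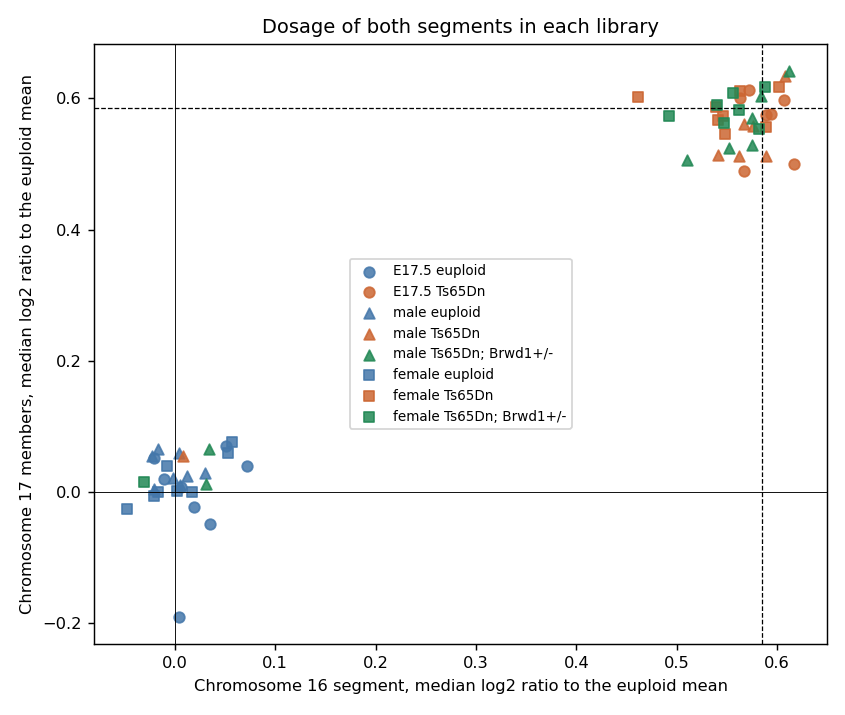
Median log2 ratio to the euploid mean of the chromosome 17 members (y axis) against that of the chromosome 16 segment (x axis), 1 point per library, coloured by genotype and shaped by stage or sex. Dashed lines mark 3 copies over 2 copies. 4 libraries labelled trisomic lie with the euploid libraries near 0 on both axes.

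The gene set called in all 3 comparisons of Ts65Dn with euploid held 14 members: Pisd-ps2, A230045G11Rik, Scaf8, Tfb1m, Tmem242, Zdhhc14, Snx9, Serac1, Gtf2h5, Ezr, Rsph3a, Cep43, Sft2d1 and Pde10a. A further 7 were called in 2 comparisons and 9 in 1. The 3 comparisons share no libraries, but 3 comparisons of 1 mouse line share its segment. The members are described below by what their proteins do, with levels in CPM, scaled by TMM, and log2 fold changes by edgeR.

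Among genes of transcription, Scaf8 encodes a protein that binds the tail of RNA polymerase II and restrains early termination. It measured 84.1 to 107 CPM (median 98.9) in the euploid embryos and 126 to 147 CPM (median 133.1) in the Ts65Dn embryos, with no overlap, a log2 fold change of 0.45 ± 0.05 (SE, adjusted p = 9.02e-05). The adult levels were 51.5 to 72.5 CPM in euploid and 90.3 to 102.6 CPM in Ts65Dn females, again with no overlap, a log2 fold change of 0.55 ± 0.08 (SE, adjusted p = 0.00014). In males they were 66.1 to 73.5 and 73.0 to 97.2 CPM, with only the library at the euploid level inside the euploid range, a log2 fold change of 0.42 ± 0.07 (SE, adjusted p = 0.00984). Gtf2h5, the smallest subunit of the repair and transcription factor TFIIH, was at 64.4 to 84.05 CPM (median 71.9) in euploid and 93.1 to 124 CPM (median 106) in Ts65Dn embryos, a log2 fold change of 0.55 ± 0.07 (SE, adjusted p = 0.000302). Its log2 fold changes in adults were 0.55 ± 0.10 (SE, adjusted p = 0.00984) in males and 0.64 ± 0.08 (SE, adjusted p = 5.45e-05) in females. No euploid female reached the lowest Ts65Dn female, with 40.6 to 56.9 against 66.02 to 76.1 CPM. Tulp4, a tubby-like protein, was at 149 to 194 CPM (median 179) in euploid and 229 to 268 CPM (median 255) in Ts65Dn embryos with no overlap, a log2 fold change of 0.50 ± 0.06 (SE, adjusted p = 8.39e-05). Its value was 0.59 ± 0.18 (SE, adjusted p = 0.087) in females, where the call was lost on leaving out 10 of 24 libraries 1 at a time, and 0.36 ± 0.10 (SE, adjusted p = 0.161) in males. Tulp4 was called in males without the libraries that lacked the dosage, at 0.43 ± 0.06 (SE, adjusted p = 6.35e-05). A230045G11Rik, a lncRNA next to Scaf8 that overlaps it by 313 bases, was at 15.9 to 22.1 CPM (median 17.53) in euploid and 25.5 to 30.3 CPM (median 26.5) in Ts65Dn embryos, a log2 fold change of 0.57 ± 0.07 (SE, adjusted p = 0.000309). It was also called in males at 0.46 ± 0.09 (SE, adjusted p = 0.0206) and in females at 0.47 ± 0.09 (SE, adjusted p = 0.00376). The library kit does not mark strand, so reads of the overlap cannot be told apart.

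Of the 4 mitochondrial members, Tfb1m, Tmem242 and Serac1 were called higher in all 3 comparisons and Mpc1 in 1. Tfb1m, a methyltransferase of the mitochondrial ribosome's small RNA, was at 7.35 to 11.3 CPM (median 8.75) in euploid and 11.2 to 15.6 CPM (median 12.3) in Ts65Dn embryos, a log2 fold change of 0.52 ± 0.10 (SE, adjusted p = 0.0139). In the adults the log2 fold changes of Tfb1m were 0.52 ± 0.12 (SE, adjusted p = 0.0449) in males, lost on leaving out 5 of 23 libraries, and 0.42 ± 0.10 (SE, adjusted p = 0.0369) in females. Its male value was 0.62 ± 0.09 (SE, adjusted p = 0.000251) without the libraries that lacked the dosage. Tmem242, a mitochondrial membrane protein, was at 38.1 to 48.3 CPM (median 43.6) and 56.6 to 75.9 CPM (median 65.8) in the same embryos with no overlap, a log2 fold change of 0.60 ± 0.07 (SE, adjusted p = 4.9e-05). It was called at 0.49 ± 0.11 (SE, adjusted p = 0.0359) in males and at 0.67 ± 0.11 (SE, adjusted p = 0.00179) in females, with the highest euploid female (42.9 CPM) inside the Ts65Dn range. Serac1, which takes part in phospholipid remodelling between the endoplasmic reticulum and mitochondria, was at 34.6 to 41.1 CPM (median 37.7) in euploid and 39.6 to 63.2 CPM (median 52.4) in Ts65Dn embryos, with log2 fold changes of 0.46 ± 0.08 (SE, adjusted p = 0.00335) in embryos, 0.61 ± 0.11 (SE, adjusted p = 0.0109) in males and 0.53 ± 0.11 (SE, adjusted p = 0.0167) in females. The gene body of Serac1 overlaps that of Synj2 by 15196 bases. Mpc1, a subunit of the carrier of pyruvate into mitochondria, passed the test in females, at 14.8 to 16.9 CPM (mean 15.98) in euploid and 20.2 to 25.8 CPM (median 23.6) in Ts65Dn with no overlap, a log2 fold change of 0.55 ± 0.09 (SE, adjusted p = 0.000574). It did not pass in males, at 0.37 ± 0.11 (SE, adjusted p = 0.207), or in embryos, at 0.55 ± 0.16 (SE, adjusted p = 0.144), where 1 euploid library was at 10.9 CPM. Mpc1 was called in males without the libraries that lacked the dosage, at 0.41 ± 0.08 (SE, adjusted p = 0.00818).

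Of the membrane, vesicle and cytoskeletal members, Sft2d1, a Golgi vesicle transport protein, was at 20.2 to 26.2 CPM (median 24.3) in euploid and 33.2 to 40.3 CPM (median 36.7) in Ts65Dn embryos, a log2 fold change of 0.60 ± 0.07 (SE, adjusted p = 3.91e-05). In adults it was at 9.21 to 12.1 and 12.2 to 16.9 CPM in males and 10.03 to 12.1 and 14.2 to 16.97 CPM in females, so that the groups did not overlap in any of the 3 comparisons. The Ts65Dn males included the library at the euploid level. The adult log2 fold changes were 0.50 ± 0.11 (SE, adjusted p = 0.0255) in males and 0.56 ± 0.08 (SE, adjusted p = 0.000195) in females. Snx9, a sorting nexin of endocytosis, was at 5.64 to 10.8 CPM (median 7.16) and 11.5 to 14.2 CPM (median 12.3) in euploid and Ts65Dn embryos, a log2 fold change of 0.76 ± 0.12 (SE, adjusted p = 0.00173). It was 0.42 ± 0.10 (SE, adjusted p = 0.0496) in males, a call lost on leaving out 7 of 23 libraries, and 0.49 ± 0.11 (SE, adjusted p = 0.0257) in females. Its male value was 0.48 ± 0.08 (SE, adjusted p = 0.000678) without the libraries that lacked the dosage. Zdhhc14, a palmitoyltransferase, was at 17.6 to 27.8 CPM (median 20.6) and 24.9 to 38.6 CPM (median 32.1) in embryos, a log2 fold change of 0.61 ± 0.11 (SE, adjusted p = 0.00742). Adult females separated fully, at 41.6 to 53.7 CPM in euploid and 70.3 to 83.0 CPM in Ts65Dn, a log2 fold change of 0.67 ± 0.09 (SE, adjusted p = 5.45e-05). In males the value of Zdhhc14 was 0.45 ± 0.11 (SE, adjusted p = 0.0761), lost on leaving out 11 of 23 libraries. Its male value was 0.55 ± 0.05 (SE, adjusted p = 1.35e-07) without the libraries that lacked the dosage. Ezr, an ezrin that links actin to the membrane, was at 69.8 to 113.4 CPM (median 74.99) and 97.4 to 149.9 CPM (median 121) in embryos with overlap, a log2 fold change of 0.55 ± 0.11 (SE, adjusted p = 0.025). It was called at 0.53 ± 0.10 (SE, adjusted p = 0.0197) in males and at 0.47 ± 0.12 (SE, adjusted p = 0.0509) in females. Cep43, a centrosomal protein, was at 26.2 to 35.9 CPM (median 29.4) and 38.3 to 47.5 CPM (median 41.3) in embryos with no overlap, with log2 fold changes of 0.47 ± 0.07 (SE, adjusted p = 0.00147), 0.49 ± 0.10 (SE, adjusted p = 0.0255) in males and 0.42 ± 0.08 (SE, adjusted p = 0.00376) in females.

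Among signalling members, Pde10a, a cyclic nucleotide phosphodiesterase enriched in striatal neurons, was at 117 to 161 CPM in euploid and 156 to 202 CPM (median 190.3) in Ts65Dn embryos, a log2 fold change of 0.43 ± 0.07 (SE, adjusted p = 0.00273). It was 0.41 ± 0.10 (SE, adjusted p = 0.0538) in males and 0.51 ± 0.15 (SE, adjusted p = 0.0741) in females, and these calls were lost on leaving out 8 of 23 and 6 of 24 libraries. Its male value was 0.45 ± 0.08 (SE, adjusted p = 0.00138) without the libraries that lacked the dosage. Striatal markers summed to a median of 106 CPM in Ts65Dn males beside 121 CPM in euploid males. Rps6ka2, a kinase activated by ERK, was called in embryos at 0.53 ± 0.08 (SE, adjusted p = 0.00147), with 43.2 to 59.0 CPM (median 49.9) and 59.0 to 80.3 CPM (median 75.2) in euploid and Ts65Dn libraries. Females gave 0.53 ± 0.10 (SE, adjusted p = 0.00637) and males 0.27 ± 0.13 (SE, adjusted p = 0.577). Rps6ka2 was called in males without the libraries that lacked the dosage, at 0.35 ± 0.07 (SE, adjusted p = 0.0157). Tiam2, an exchange factor for Rac, was at 88.1 to 314 CPM (median 163) and 34.3 to 281 CPM (median 149) in embryos, a log2 fold change of -0.02 ± 0.38 (SE, adjusted p = 0.983). The lowest Ts65Dn embryo, replicate 7, stood at 34.3 CPM and also had the lowest sum of embryonic forebrain markers, 309 CPM beside 749 to 1782 CPM in the other Ts65Dn embryos. In males Tiam2 was called at 0.65 ± 0.13 (SE, adjusted p = 0.0196), and in females it was 0.24 ± 0.14 (SE, adjusted p = 0.42), where 1 euploid library was at 69.7 CPM. Outside the signalling genes, Prr18, a proline-rich protein, was called in embryos at 0.54 ± 0.13 (SE, adjusted p = 0.0725), lost on leaving out 8 of 15 libraries, and in females at 0.65 ± 0.13 (SE, adjusted p = 0.00704) with no overlap (46.6 to 75.8 against 76.5 to 118 CPM). Fndc1, a fibronectin type III protein, passed in embryos at 0.65 ± 0.16 (SE, adjusted p = 0.0695), a call lost on leaving out 7 of 15 libraries, and was 0.84 ± 0.30 (SE, adjusted p = 0.351) in males and 0.28 ± 0.19 (SE, adjusted p = 0.526) in females.

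**Figure D3:**
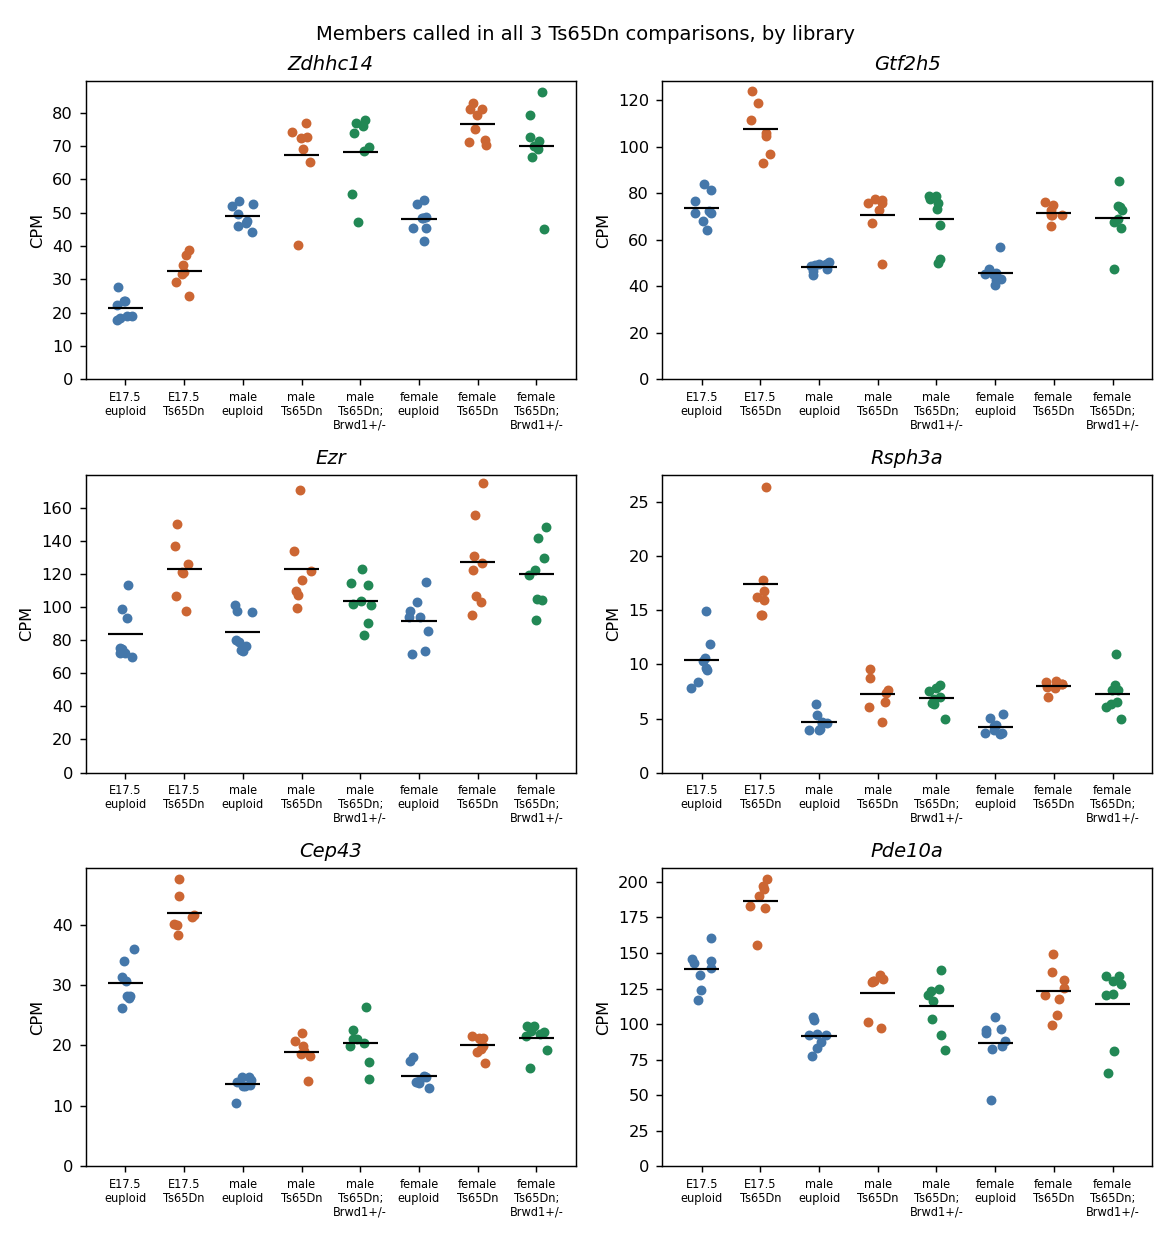
Levels in CPM (y axis from 0) of Zdhhc14, Gtf2h5, Ezr, Rsph3a, Cep43 and Pde10a in each of the 8 groups, with 1 point per library and a line at the group mean. The trisomic groups stand above the euploid ones, and some libraries of the trisomic adult groups stand in the euploid range.

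Of the pairs that share sequence in part, Rsph3a and Rsph3b encode a radial spoke protein of motile cilia. Rsph3a was called in all 3 comparisons, at 0.75 ± 0.15 (SE, adjusted p = 0.0167) in embryos, 0.64 ± 0.13 (SE, adjusted p = 0.0255) in males and 0.91 ± 0.12 (SE, adjusted p = 8.6e-05) in females, with 3.60 to 5.38 CPM (median 4.11) in euploid and 7.02 to 8.49 CPM (median 8.07) in Ts65Dn females. Rsph3b was called only in females, at 0.77 ± 0.19 (SE, adjusted p = 0.04), and was -0.12 ± 0.21 (SE, adjusted p = 0.918) in males. Summed over both copies, Rsph3 was at 9.31 to 16.7 CPM in euploid and 18.6 to 30.2 CPM in Ts65Dn embryos with no overlap, a mean 1.67-fold higher, and 4.43 to 6.81 and 9.63 to 11.5 CPM in females with no overlap, 1.86-fold higher. In males the sum overlapped and was 1.36-fold higher, or 1.44-fold without the libraries that lacked the dosage. The 95% intervals lay above 0.585 for Rsph3a and Ccr6 in females and for Tmem181c-ps and Gm8465 in males.

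The Tagap genes encode GTPase-activating proteins. Tagap1 was at 20.9 to 24.9 CPM (median 22.9) in euploid and 27.1 to 32.5 CPM (median 29.2) in Ts65Dn embryos with no overlap, a log2 fold change of 0.40 ± 0.06 (SE, adjusted p = 0.00137), and was 0.60 ± 0.08 (SE, adjusted p = 0.000116) in females and 0.28 ± 0.10 (SE, adjusted p = 0.37) in males. Tagap was 0.69 ± 0.21 (SE, adjusted p = 0.152) in embryos, 0.999 ± 0.25 (SE, adjusted p = 0.0812) in males (a call lost on leaving out 12 of 23 libraries) and 0.78 ± 0.14 (SE, adjusted p = 0.00281) in females. Both were called in males without the libraries that lacked the dosage. Tagap1 was then at 0.35 ± 0.07 (SE, adjusted p = 0.0179) and Tagap at 1.15 ± 0.22 (SE, adjusted p = 0.00686). Summed, the family was 1.35-fold higher in embryos and 1.55-fold higher in females, in both with no overlap, and 1.29-fold higher in males. The male sum was 1.385-fold higher without the libraries that lacked the dosage.

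The Dynlt1 copies were called singly in embryos (Dynlt1f, 0.84 ± 0.15 (SE, adjusted p = 0.00791)) and in females (Dynlt1b, 0.91 ± 0.26 (SE, adjusted p = 0.0785), and Dynlt1f, 0.78 ± 0.23 (SE, adjusted p = 0.0841)). Both calls in females were lost on leaving out single libraries (7 and 10 of 24), and Dynlt1b had 1 Ts65Dn library at 2.81 CPM, without which its log2 fold change was 0.50. Summed over the 4 copies, Dynlt1 was at 15.1 to 33.2 CPM in euploid and 31.9 to 45.8 CPM in Ts65Dn embryos, 1.55-fold higher with 5 of 7 Ts65Dn libraries above every euploid library. In adults the sum was at a median of 1.19 CPM in euploid males and 1.24 CPM in euploid females, far below the 24.2 CPM of euploid embryos. It was 1.25-fold higher in Ts65Dn males (1.28-fold without the libraries that lacked the dosage) and 1.63-fold in Ts65Dn females. Dynlt1a and Dynlt1c did not pass the test in any comparison in which they were tested, and Dynlt1a overlaps Tmem181a by 1971 bases.

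The Rnaset2 copies gave unlike single values. In embryos Rnaset2a was at 3.97 to 9.09 CPM (median 4.87) and 8.18 to 28.6 CPM (median 9.83) in euploid and Ts65Dn, a log2 fold change of 1.08 ± 0.28 (SE, adjusted p = 0.106) that did not pass, while Rnaset2b was at 1.68 to 9.70 CPM (median 4.06) and 3.74 to 5.51 CPM (median 4.01), at -0.02 ± 0.27 (SE, adjusted p = 0.979). Rnaset2a passed in females at 0.95 ± 0.21 (SE, adjusted p = 0.0224) and not in males at 0.34 ± 0.26 (SE, adjusted p = 0.774), while Rnaset2b was 0.37 ± 0.28 (SE, adjusted p = 0.588) in females and 0.999 ± 0.35 (SE, adjusted p = 0.323) in males. Their sum was 1.61-fold, 1.44-fold and 1.68-fold higher in Ts65Dn embryos, males and females, each with overlap between the groups. The male sum was 1.55-fold higher without the libraries that lacked the dosage.

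The Tmem181 copies encode or derive from a multi-pass membrane protein. In euploid embryos Tmem181c-ps lay at 25.99 to 29.5 CPM in replicates 1, 2, 5 and 8 and at 52.9 to 58.7 CPM in replicates 3, 4, 6 and 7, while the Ts65Dn embryos lay at 61.7 to 102 CPM. It was called at 0.85 ± 0.21 (SE, adjusted p = 0.08), and the call was lost on leaving out 11 of 15 libraries. In euploid males it was at 1.04 to 41.6 CPM (median 16.8), with replicate 4 at 1.04 CPM, and in Ts65Dn males at 20.1 to 61.0 CPM (median 56.8), a log2 fold change of 1.38 ± 0.37 (SE, adjusted p = 0.139). The male value was 1.51 ± 0.38 (SE, adjusted p = 0.0902) without the libraries that lacked the dosage. In euploid male replicate 4, Ccr6 and the pseudogene Gm8465 were at 0 and Tmem181a and Gm16702 were at the group's highest level. Tmem181a was at 3.06 to 8.60 CPM (median 5.94) in euploid and 4.01 to 7.39 CPM (median 4.70) in Ts65Dn males, at -0.21 ± 0.21 (SE, adjusted p = 0.851), and Tmem181b-ps was 0.27 ± 0.18 (SE, adjusted p = 0.54), 0.33 ± 0.14 (SE, adjusted p = 0.494) and 0.25 ± 0.16 (SE, adjusted p = 0.479) in embryos, males and females. Summed over the 3 copies, the male groups did not overlap, at 53.4 to 97.7 CPM in euploid and 99.9 to 139.9 CPM in Ts65Dn, 1.56-fold higher. All 7 Ts65Dn males stood above every euploid male, including the library at the euploid level, so this separation cannot be read as dosage alone. The sum was 1.36-fold and 1.28-fold higher in embryos and females, with overlap. The male sum was 1.61-fold higher without the libraries that lacked the dosage.

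**Figure D4:**
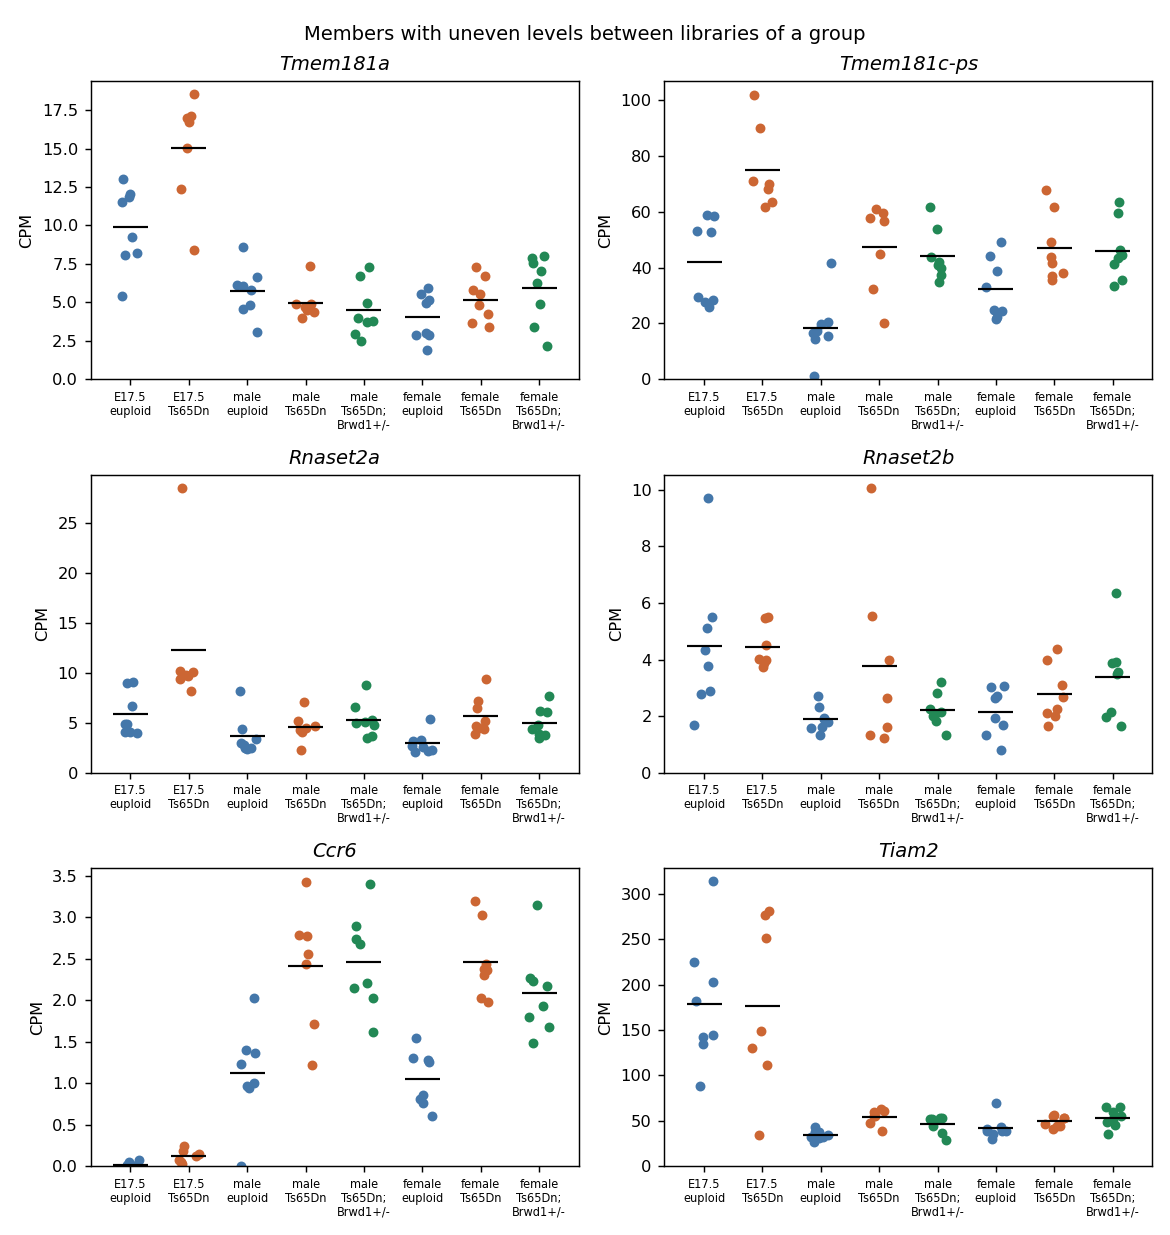
Levels in CPM (y axis from 0) of Tmem181a, Tmem181c-ps, Rnaset2a, Rnaset2b, Ccr6 and Tiam2 in each of the 8 groups, with 1 point per library and a line at the group mean. In Tmem181c-ps the euploid embryos form a lower set (25.99 to 29.5 CPM) and an upper set (52.9 to 58.7 CPM).

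Other members with extreme values were the chemokine receptor Ccr6 and lncRNA Gm16702. Ccr6 was at 0.605 to 1.54 CPM (median 1.05) in euploid and 1.97 to 3.20 CPM (median 2.36) in Ts65Dn females with no overlap, a log2 fold change of 1.23 ± 0.18 (SE, adjusted p = 0.000322), and at 1.10 ± 0.36 (SE, adjusted p = 0.279) in males, which did not pass. The markers of T cells and microglia summed to a median of 123 CPM in euploid and 135.3 CPM in Ts65Dn females, with the lowest marker at a median of 0.00901 and 0 CPM, and their part in the Ccr6 result was not tested. In embryos Ccr6 was not described, with 0 to 0.0701 CPM in euploid and 0.0259 to 0.244 CPM in Ts65Dn. Gm16702 rose in embryos, at 3.75 to 7.83 CPM (median 6.34) and 8.997 to 16.96 CPM (mean 11.5) with no overlap, a log2 fold change of 0.90 ± 0.16 (SE, adjusted p = 0.00636), was -0.58 ± 0.40 (SE, adjusted p = 0.733) in males and 0.85 ± 0.30 (SE, adjusted p = 0.157) in females, and overlaps T2 by 10424 bases. Pisd-ps2 was at 2.66 to 3.68 CPM (median 3.44) and 3.98 to 5.79 CPM (median 5.21) in euploid and Ts65Dn males with no overlap, at 0.60 ± 0.13 (SE, adjusted p = 0.032). The Ts65Dn males included the library at the euploid level. Pisd-ps2 also passed in embryos at 0.49 ± 0.12 (SE, adjusted p = 0.0741), a call lost on leaving out 11 of 15 libraries, and in females at 0.64 ± 0.19 (SE, adjusted p = 0.0793), lost on leaving out 6 of 24. Gm8465 was called in adults at 1.64 ± 0.38 (SE, adjusted p = 0.0471) in males and 1.12 ± 0.29 (SE, adjusted p = 0.0451) in females. T, the mesoderm factor Brachyury, was counted in embryos but did not pass the filter of the test, with a range of 0.0389 to 0.336 CPM in euploid and 0.310 to 0.878 CPM in Ts65Dn libraries. Cldn20, 1700102H20Rik, Ldhal6b, Gm2808, Sytl3 and T2 passed the test in no comparison. Gm1604b and Gm1604a were described at 1 stage and not tested for Ts65Dn against euploid. Gm1604a was tested only for the interactions of sex with genotype.

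The members not described at either stage were Nox3, 4930470H14Rik, 4930548J01Rik, Gm8363, 3300005D01Rik, Mir692-1, 1700122H20Rik, Tcp10a, Ttll2, Unc93a2 and AU041480. Mir692-1 was at 0 in all libraries, and the highest level of any of the others was 0.439 CPM (AU041480 in a Ts65Dn embryo). Their counts were too few for a dosage to be read.

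In euploid libraries the members' levels per kilobase of annotated exon, which adjust for exon length, were given for 43 members with an annotated exon length. For members with shared sequence, such as the Dynlt1 genes, these levels also depend on how counts were divided between copies, so they cannot be compared between genes. Ezr was the highest at 25.4 CPM per kb in embryos and 25.8 and 27.9 CPM per kb in adult males and females. Tmem242 (23.7), Gtf2h5 (19.1), Prr18 (17.9) and Scaf8 (16.7) followed in embryos. Dynlt1b was at 9.23 CPM per kb in embryos and 0.716 and 0.715 CPM per kb in adult males and females, and Tiam2 at 14.1 in embryos and 2.70 and 3.29 in adults. Zdhhc14 was higher in adults, at 15.9 and 15.6 CPM per kb beside 6.93 CPM per kb in embryos. Tissue, age and libraries differ between these groups and no test was made.

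At the distal end, Pde10a was the last member. Beyond it, 1700010I14Rik was at 1.33 to 2.64 CPM (median 1.83) in euploid and 2.75 to 4.17 CPM (median 3.46) in Ts65Dn embryos with no overlap, a log2 fold change of 0.91 ± 0.16 (SE, adjusted p = 0.00763). In females it was 0.81 ± 0.19 (SE, adjusted p = 0.0298) and in males 0.70 ± 0.25 (SE, adjusted p = 0.347). Further distal, Qk was at 0.02, 0.01 and -0.06 in embryos, males and females, and 6530411M01Rik, Cahm and 1700110C19Rik were called in none. Of the genes the rule left out, Arid1b was called in all 3 comparisons, at 0.50, 0.46 and 0.52, and Synj2 was 0.70 in embryos (adjusted p = 0.111), 0.47 in males (adjusted p = 0.071) and 0.78 in females (adjusted p = 0.000273).

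No member was called between Ts65Dn;Brwd1+/- and Ts65Dn. In Ts65Dn;Brwd1+/- against euploid, 12 of 40 members were called higher in males (0.439% of all genes) and 15 of 40 in females (0.554%), with medians of 0.43 and 0.51. Without the libraries that lacked the dosage, 21 of 41 members were called in males (0.994% of all genes) with a median of 0.58, and 18 of 40 in females (0.854%) with a median of 0.54. In males 5 members were called on leaving out replicate 1, 5, 6 or 7 of the Ts65Dn;Brwd1+/- group, 6 on leaving out its replicate 4, and 7 on leaving out euploid replicate 5 or 7. Set directly against Ts65Dn, 0 of 40 members were called in males (0% of all genes tested) and 0 of 40 in females (0%), with median log2 fold changes of -0.04 and -0.08. Without the libraries that lacked the dosage, 0 members were again called in either sex, the male median changed sign to 0.02 and the female median was -0.03. On leaving out 1 library at a time the male median ranged from -0.09 to 0.02. At an unadjusted p under 0.05 edgeR gave 2 of 40 members in males, Ezr (-0.24) and Rnaset2b (-0.77), and 0 of 40 in females. Over all genes it gave 1261 of 16851 in males and 604 of 17146 in females, a larger share than among the members in both sexes. Without the libraries that lacked the dosage, Ezr was at -0.23 (edgeR, unadjusted p = 0.0491) and Rnaset2b at -0.76 (edgeR, unadjusted p = 0.0728). A p that misses the threshold does not show that the groups were alike, and the interval of the log2 fold change contained 0 for 38 of 40 members in males and 40 of 40 in females. The comparisons with euploid share their control libraries with those of Ts65Dn.

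The sexes were compared by the interaction of sex with genotype in the 47 adult libraries. In the response to Ts65Dn, 0 of 42 members passed (0% of all genes), with a median difference of 0.09. The median difference fell to 0.02 without the libraries that lacked the dosage, and was also 0.02 on leaving out male Ts65Dn replicate 1 alone. In Ts65Dn;Brwd1+/- against Ts65Dn, 0 of 42 passed (0%). At an unadjusted p under 0.05 edgeR gave 5 of 42 members in the first, beside 1935 of all 17427 genes tested, a similar share. These 5 were Tiam2 (-0.40), Tmem181c-ps (-0.83), Rsph3b (0.90), Tagap1 (0.32) and Gm16702 (1.43). In the second, edgeR gave 1 of 42 members, Rnaset2b (1.04), beside 650 of 17427 genes. Without the libraries that lacked the dosage, the first 5 members stayed under that p by edgeR, and Rnaset2b was at 0.84 (edgeR, unadjusted p = 0.0881). A positive value is a larger difference in females.

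Genes outside the segments whose proteins work with, or are close relatives of, those of the members were taken as a list of 47, chosen with earlier results known. In embryos and in males 0 of 47 passed the test, beside 1.35% and 0.795% of all genes called in either direction. In females 4 of 47 passed, beside 3.17% of all genes. At an unadjusted p under 0.05 edgeR gave 4, 4 and 12 of the 47 in embryos, males and females. Over all genes tested it gave 1981 of 16395, 1502 of 16851 and 2643 of 17146 in the same order. Of the 4 called in females, 2 were higher, Dynlt3 (0.23, adjusted p = 0.0536), a relative of Dynlt1, and Pde1a (0.45, adjusted p = 0.0493), a phosphodiesterase. Lower in females were Polrmt (-0.23, adjusted p = 0.0216), the mitochondrial RNA polymerase, and Pde1b (-0.21, adjusted p = 0.0802). The median log2 fold changes of the list were 0.01, -0.01 and 0.03 in embryos, males and females, beside 0.56, 0.49 and 0.54 for the members.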

How the data were processed

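RNA-seq counts from 15 libraries of E17.5 forebrain and 47 of 6-week hippocampus were used. The authors deposited raw counts per gene as whole numbers, without normalization, after mapping reads to mm10 with HISAT2 and counting with featureCounts 2.0.1. The submitters' processing notes name HISAT2 2.1.0, DESeq2 2.11.40.6 and also mm9. Reads of 2 flow cells were joined for each library. Gene positions came from RefSeq for 25275 genes and from GENCODE for 17, and 1887 genes were unmatched. Sequences were read from GRCm38.

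Tests used edgeR 4.0.16 in R 4.3.3, with TMM scaling, filterByExpr and the robust quasi-likelihood fit over all genes. Calls were made at a Benjamini-Hochberg adjusted p under 0.1. Each sex was fitted with its 3 genotypes together, embryos apart, and the interactions used all 47 adult libraries. Males and females were scaled separately. The standard error is the log2 fold change over the square root of F. CPM used a prior count of 0.5 on the log2 scale. A library lacked dosage if the median log2 ratio of its chromosome 16 genes to the euploid mean was under 0.2. Sums over copies and library medians are descriptions. Every member is named, those called in all 3 comparisons, the 3 highest and lowest, the members of families and the distal neighbours with values. Members and lists were chosen with earlier results of these data known. The fit was tested on simulated counts. Alternatives were DESeq2 1.42.0, RUVr factors, other filters, normalizations and thresholds, single libraries left out, and a choroid plexus covariate chosen after seeing the data. Replicates of a group differed by a chi-square per degree of freedom of at least 9.05. Library totals of 14.9 to 137.1 M counts leave low members poorly measured.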

Additional observations from a re-analysis of the deposited data

Results flagged for a closer look

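In groups of 7 or 8 libraries, 264 sets of values were examined for a single library far from the rest, and 35 had one, where chance gives about 1 in 20. Among the members' medians (log2 ratio to the euploid mean), euploid embryo replicate 3 stood at -0.190, male Ts65Dn replicate 1 at 0.0544 and female Ts65Dn;Brwd1+/- replicate 3 at 0.0147. Euploid embryo replicate 3 also had the highest sum of endothelial and meningeal markers, 904 CPM beside 129 to 236 CPM in the other euploid embryos, and the lowest Scaf8 at 84.1 CPM. The part of those markers in its members' values was not tested.

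Male Ts65Dn replicate 1 was low in Scaf8 at 73.0 CPM, Tmem242 at 30.8 CPM, Zdhhc14 at 40.4 CPM, Serac1 at 30.0 CPM and Gtf2h5 at 49.5 CPM. Female Ts65Dn;Brwd1+/- replicate 3 was low in A230045G11Rik at 8.99 CPM, Zdhhc14 at 45.1 CPM, Snx9 at 10.5 CPM and Sft2d1 at 10.1 CPM. In female euploid replicate 2, Scaf8 was low at 51.5 CPM, Pde10a at 46.7 CPM, while Tmem242 at 42.9 CPM, Gtf2h5 at 56.9 CPM and Rnaset2a at 5.36 CPM were high.

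Single values far from their group were also seen elsewhere. Tiam2 was at 69.7 CPM in female euploid replicate 7, Tmem181a at 7.39 CPM in male Ts65Dn replicate 6, Dynlt1b at 2.81 CPM in female Ts65Dn replicate 6 and Dynlt1c at 0.852 CPM in male Ts65Dn replicate 2 and 0.714 CPM in female Ts65Dn replicate 3. Dynlt1f was low at 0.149 CPM in male Ts65Dn;Brwd1+/- replicate 2. Rsph3b was at 6.92 CPM in Ts65Dn embryo replicate 2, Rsph3a at 26.4 CPM in Ts65Dn embryo replicate 1 and 7.02 CPM in female Ts65Dn replicate 8. Fndc1 was at 38.5 CPM in male euploid replicate 1 and 60.6 CPM in female Ts65Dn replicate 5. Rnaset2a was at 28.6 CPM in Ts65Dn embryo replicate 3 and 8.21 CPM in male euploid replicate 8. Cep43 was low at 10.4 CPM in male euploid replicate 6, Sft2d1 low at 14.2 CPM in female Ts65Dn replicate 1, Ccr6 high at 3.15 CPM in female Ts65Dn;Brwd1+/- replicate 4 and Gm16702 high at 4.55 CPM in male euploid replicate 4.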

How the results depend on the processing

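Of 380 counts of members called, 357 stayed within 1.5 times their reported value, or at 0 where that value was 0. Many of the 357 are counts of 0 from the direct comparisons and interactions. On leaving out 1 library at a time, 7 of 23 counts moved further for Ts65Dn;Brwd1+/- males against euploid. Of 3247 single log2 fold changes, 2965 kept their call, 282 lost it and 0 turned direction. In embryos, using only the libraries that carry 1 of the numbers in the embryo titles gave 12 members called, and those with the other number gave 2. That number as a covariate gave 22 members called, 21 of them among the 22 called without it. A separate fit with the replicate numbers shared by euploid and Ts65Dn embryos as a replicate block, which leaves out euploid replicate 8, gave 18 members called, 17 of them among the 22, and a median of 0.59. The replicate numbers were not taken to pair libraries, since the correlations of same-numbered deviations ranged from -0.136 to 0.229. In Ts65Dn;Brwd1+/- males against euploid, 7 members were called at an adjusted p under 0.05, 20 by DESeq2, 22 and 24 with 2 and 3 RUVr factors, and 21 without the libraries lacking dosage. In Ts65Dn;Brwd1+/- females against euploid, 23, 30 and 31 were called with 1, 2 and 3 RUVr factors. In Ts65Dn;Brwd1+/- against Ts65Dn males, 1 was called with 2 factors and 1 with 3, and for the interaction of sex with Ts65Dn 1, 3 and 3 with 1, 2 and 3 factors. The median of Ts65Dn females was 0.57 with identifiers starting with B only. Leaving out 1 library at a time gave 18 to 26 members in embryos, 11 to 20 in Ts65Dn males, 21 to 27 in Ts65Dn females (median 0.50 to 0.57), 5 to 18 in Ts65Dn;Brwd1+/- males and 14 to 19 in Ts65Dn;Brwd1+/- females against euploid, and 0 in the direct comparisons and interactions (median interaction 0.02 to 0.11). The call was kept in every such fit for 18 of 22, 11 of 17, 20 of 26, 5 of 12 and 14 of 15 members in the order embryos, Ts65Dn males, Ts65Dn females, Ts65Dn;Brwd1+/- males and females. The causes were not tested. Low counts limit the Dynlt1 copies in adults and the members not described.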
